A study of Mus musculus with 12 samples.

Results

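The RNA levels of 10 genes of the heat shock response were followed across 12 RNA-seq libraries of mouse forebrain neural stem cells (NSCs). The genes were chosen by symbol: Hsf1, Hspa1a, Hspa1b, Hspa8, Hsp90aa1, Hspb1, Hsph1, Dnajb1, Bag3 and Hspd1. All 10 were among the 45792 genes quantified, and all 10 passed the filter on low counts that kept 15706 genes for testing. The cells were primary NSCs of neonatal pups on a C57BL/6J background, expanded in serum-free medium with EGF and FGF and used at the second passage, with 1 culture per library. The 3 groups were WT, Ncf1-/- given vehicle (called Ncf1-/- below) and Ncf1-/- given mouse recombinant Igfbp2, with 4 libraries each. Both Ncf1-/- groups constitutively lack Ncf1, a subunit of the Nox2 NADPH oxidase that makes reactive oxygen species. Igfbp2, a secreted binding protein of insulin-like growth factors, was added to the medium 48 h after plating, with RNA taken 48 h later. The labels give the Igfbp2 dose as 100 ng/ml, whereas the study's methods state a lower concentration.

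The heat shock response is the rise in molecular chaperones that follows protein damage. In unstressed cells the transcription factor Hsf1 is held inactive by chaperones of the HSP70 and HSP90 families. Misfolded proteins draw those chaperones away, and freed Hsf1 forms trimers that bind heat shock elements, runs of inverted GAA and TTC units in the promoters of chaperone genes. Some members of the family, such as Hspa8, are made at high levels in every cell, while others, such as Hspa1a and Hspa1b, are nearly silent until stress.

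The depth of the libraries ranged from 18201622 to 34086554 counts. WT replicate 3 stood apart from the other WT libraries: the summed level of 8 NSC markers was 8149 CPM (counts scaled to a common total per library, and between libraries with TMM factors) there against 2470 to 3702 CPM in the other 3, and 7989 to 8801 CPM in the 4 Ncf1-/- libraries. Vim and Fabp7 made up most of these sums, and in Ncf1-/- against WT 3 of the 8 markers passed as higher and 4 as lower, Sox2, Prom1 and Msi1 among the latter. The summed level of 12 oligodendrocyte markers was 3306 to 11700 CPM in WT and 2193 to 2360 CPM in Ncf1-/- NSCs, and 10 of the 12 were called lower in Ncf1-/- and the other 2, Olig1 and Olig2, higher. The summed level of 8 astrocyte markers was 7359 to 13140 CPM in WT, 3246 to 3800 CPM in Ncf1-/- and 3540 to 4729 CPM with Igfbp2. Gfap alone measured 3667 to 7590 CPM in WT. In Ncf1-/- against WT 7 of the 8 were called lower and 0 higher, and in Igfbp2 against WT 6 lower and 1, Aldh1l1, higher. Aldh1l1 measured 241 to 1539 CPM in WT, 1019 to 1143 CPM in Ncf1-/- and 1440 to 1782 CPM with Igfbp2. All 8 proliferation genes passed as higher in Ncf1-/- NSCs. Of 10 microglial markers, 6 had at most 3 counts in every library. The 10 summed to 1.28 to 2.43 CPM in WT, 2.91 to 3.77 CPM in Ncf1-/- and 2.20 to 2.95 CPM with Igfbp2. Of the 3 that were tested, 2 were called higher and 0 lower in each Ncf1-/- group against WT. The WT and Ncf1-/- cultures thus differed in cell type markers, and how far this entered the comparisons of chaperone genes was not tested. The 4 Y-linked genes examined summed to 105 to 116 CPM in the vehicle libraries, to 7.80 to 9.18 CPM in the Igfbp2 libraries, to 6.46 CPM in WT replicate 4 and to 107 to 118 CPM in the other WT libraries. Effects of Igfbp2 and of sex-linked differences between those cultures cannot be told apart, although the methods describe vehicle and Igfbp2 cultures as pairs from the same animals. Ncf1 itself had 2 to 7 counts in WT libraries and 1 to 4 in the others, too few to check the genotype.

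RefSeq promoter windows of 300 bases, from 250 bases before to 50 after a start site, were given for 7 of the 10 members, in 10 windows on GRCm38.p6: Hspa1a, Hspa1b, Hspb1, Hsph1, Dnajb1, Bag3 and Hspd1. Each window was searched for 2 adjoining inverted units of a heat shock element, GAANNTTC or TTCNNGAA, which read the same on both strands and may overlap each other. At least 1 match was found in 7 of the 10 windows, which belong to 6 members (both Hsph1 windows overlap), against 15.1% of all 32851 windows in the table and 11.6% of the 13695 windows of genes tested. A run of 3 units, GAANNTTCNNGAA or TTCNNGAANNTTC, was found in 1 window of Hspd1 and in both of Hsph1, against 0.603% of all windows. A match is a description of the letters and not a measured binding site. The windows below are those of Hspa1a and Hspa1b, which are near-identical, of Bag3 and Hspd1, which were called in the comparisons, of Hspb1, which was called against WT and holds 2 matches, and of Hsph1, which holds a run of 3 units. They are written 5′ to 3′ on the strand of the gene, with matches in capitals.
Hspa1a, chr17:34972107-34972406, minus strand: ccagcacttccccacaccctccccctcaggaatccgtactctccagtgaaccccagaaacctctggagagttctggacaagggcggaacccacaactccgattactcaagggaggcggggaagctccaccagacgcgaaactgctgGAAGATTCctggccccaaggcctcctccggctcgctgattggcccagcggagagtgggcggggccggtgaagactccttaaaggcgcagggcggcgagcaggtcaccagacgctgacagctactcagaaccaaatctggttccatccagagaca
Hspa1b, chr17:34959189-34959488, minus strand: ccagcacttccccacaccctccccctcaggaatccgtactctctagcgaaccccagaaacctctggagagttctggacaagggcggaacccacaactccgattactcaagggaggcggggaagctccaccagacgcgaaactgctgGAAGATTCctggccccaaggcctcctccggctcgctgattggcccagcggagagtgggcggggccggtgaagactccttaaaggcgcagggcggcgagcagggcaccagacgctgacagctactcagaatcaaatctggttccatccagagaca
Bag3, chr7:128523333-128523632, plus strand: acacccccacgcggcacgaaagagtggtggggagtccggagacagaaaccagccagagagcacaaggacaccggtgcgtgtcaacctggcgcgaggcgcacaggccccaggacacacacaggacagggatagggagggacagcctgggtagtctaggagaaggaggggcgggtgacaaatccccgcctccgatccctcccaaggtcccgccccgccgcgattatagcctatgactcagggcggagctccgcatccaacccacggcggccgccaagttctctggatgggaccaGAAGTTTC
Hspb1, chr5:135887669-135887968, plus strand: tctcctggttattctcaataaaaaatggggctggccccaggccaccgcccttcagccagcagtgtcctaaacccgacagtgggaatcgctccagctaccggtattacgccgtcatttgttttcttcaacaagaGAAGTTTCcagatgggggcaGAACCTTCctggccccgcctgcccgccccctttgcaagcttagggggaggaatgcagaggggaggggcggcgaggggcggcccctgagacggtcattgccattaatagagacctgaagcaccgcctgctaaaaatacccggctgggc
Hspd1, chr1:55087883-55088182, minus strand: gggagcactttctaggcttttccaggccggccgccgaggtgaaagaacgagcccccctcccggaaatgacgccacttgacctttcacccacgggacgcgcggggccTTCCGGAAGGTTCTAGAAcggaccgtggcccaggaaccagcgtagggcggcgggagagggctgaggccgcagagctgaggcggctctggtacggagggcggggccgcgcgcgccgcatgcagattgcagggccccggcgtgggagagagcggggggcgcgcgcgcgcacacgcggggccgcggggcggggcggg
Hsph1, chr5:149636266-149636565, minus strand: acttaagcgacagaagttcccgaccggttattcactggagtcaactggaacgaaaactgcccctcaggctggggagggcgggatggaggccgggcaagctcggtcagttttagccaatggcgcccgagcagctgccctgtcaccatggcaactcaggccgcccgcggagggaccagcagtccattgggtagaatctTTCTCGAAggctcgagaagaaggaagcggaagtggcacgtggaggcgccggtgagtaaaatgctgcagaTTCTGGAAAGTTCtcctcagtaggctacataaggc

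The Hspa1a and Hspa1b windows differed at 4 of 300 bases, and both held a single match that began 104 bases before the start site. The longest open reading frames of the 2 genes, of 1926 and 1929 bases, were compared position by position without alignment. They differed at 36 positions, an identity of 98.13% over the shorter one. Some of these positions may differ only through the shift in length. The printed Hspd1 window held 3 overlapping matches between 144 and 134 bases before its start site, which together form 1 unbroken run of units. In GENCODE M21 the 5′ end of Hspd1 is at base 55088243, so this window and its matches lie inside the annotated gene. The single Bag3 match lay after the start site, in the last bases of the window. The other Hspd1 window, chr1:55088194-55088493, spans the annotated 5′ end of the gene and held no match. Both Dnajb1 windows were without a match as well. Reads of several members are shared with near-identical genes: 62.3% of the 50-base stretches of Hspa1b transcripts also occur in Hspa1a, 64.4% of those of Hspa8 in Gm15459, 48.8% of those of Hspb1 in Hsp25-ps1, 44.1% of those of Hsp90aa1 in Gm12346 and 38.0% of those of Hspd1 in Hspd1-ps3. No 50-base stretch of Bag3, Hsph1 or Hsf1 occurs in another gene of the GENCODE M21 transcripts. The values of members with shared stretches depend on how RSEM divided such reads.

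The members differed widely in level. On the TPM scale, which is per length and so allows genes to be compared, the order in WT NSCs was Hspa8 (533 ± 98.7 TPM, SD, n = 4), Hsp90aa1 (157 ± 15.5 TPM), Hspd1 (58.4 ± 7.16 TPM), Hsph1 (23.4 ± 3.48 TPM), Dnajb1 (14.0 ± 1.18 TPM), Bag3 (12.9 ± 3.60 TPM), Hsf1 (7.87 ± 0.744 TPM), Hspa1b (1.43 ± 0.642 TPM), Hspa1a (0.758 ± 0.452 TPM) and Hspb1 (0.660 ± 0.796 TPM). In WT the ranges of Dnajb1 and Bag3 overlapped, as did those of Bag3 and Hsf1 and those of neighbours among the 3 lowest genes, while the ranges of all other neighbours were apart. The first 7 genes kept this order in both other groups, and the 3 lowest changed places with overlapping ranges. Hspa8, the constitutive cytosolic HSP70, exceeded the summed stress-inducible pair Hspa1a and Hspa1b by 152- to 364-fold in WT libraries, by 421- to 463-fold in Ncf1-/- libraries and by 248- to 321-fold in Igfbp2 libraries.

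**Figure D1:**
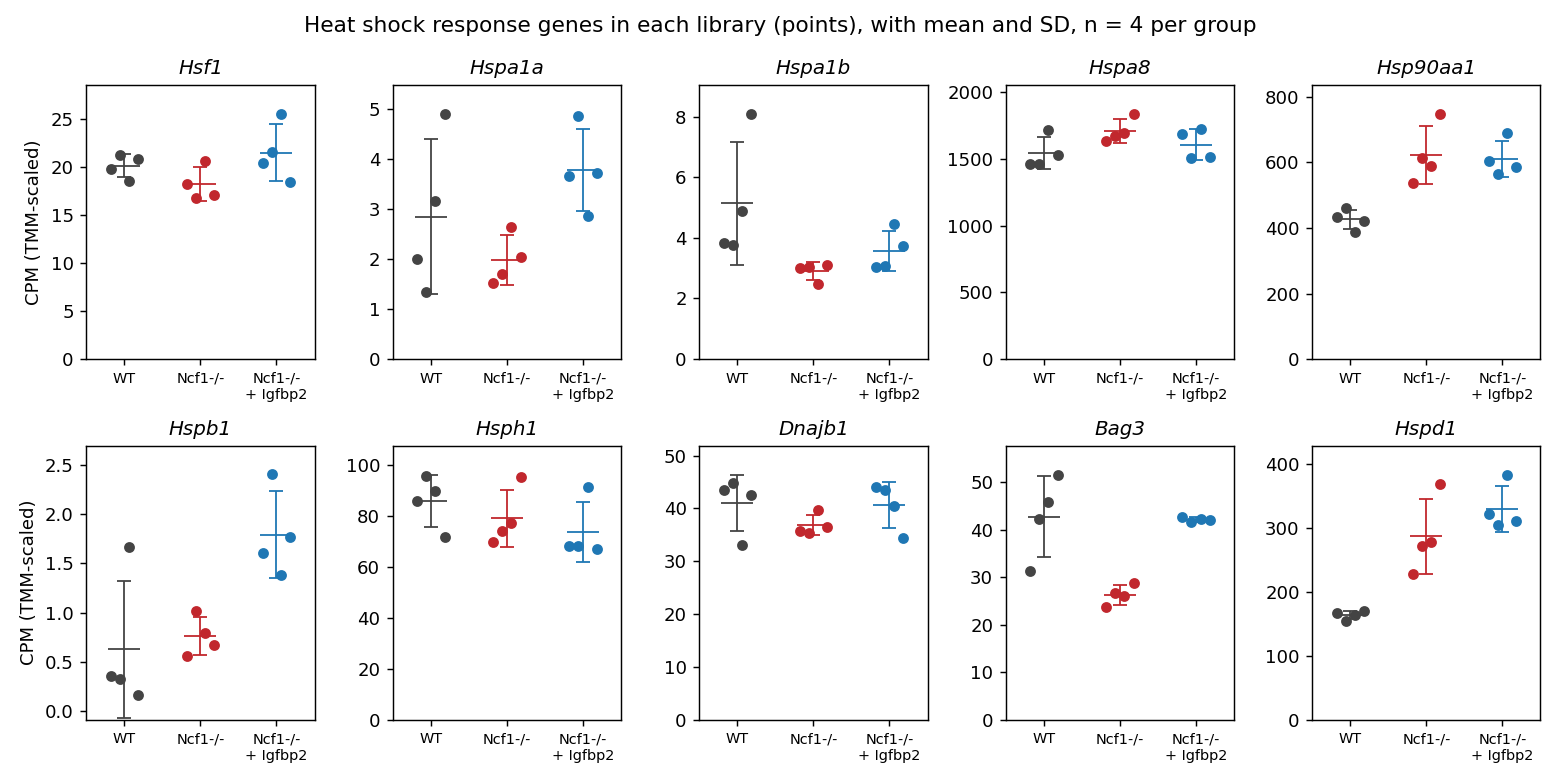
TMM-scaled CPM (vertical axis, from 0 except where an SD bar passes below it) of each member in each of the 12 libraries (points), by group on the horizontal axis, with the mean (horizontal line) and SD (bars) of 4 libraries. The 4 Ncf1-/- points of Bag3 lie between 23.7 and 28.7 CPM, below all WT and Igfbp2 points, and the WT points of Hspd1, between 155 and 170 CPM, lie below all Ncf1-/- points.

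The comparison of Ncf1-/- with WT NSCs asked which genes depend on Ncf1. In Ncf1-/- NSCs 2 members were higher, Hspd1 and Hsp90aa1, and 2 were lower, Bag3 and Hspa1b. The differences ranged from 1.46-fold higher for Hsp90aa1 and 1.75-fold higher for Hspd1 to 1.62-fold lower for Bag3 and 1.76-fold lower for Hspa1b. Across all genes tested, 28.9% were called higher and 28.2% lower in this comparison (edgeR quasi-likelihood test, Benjamini-Hochberg adjusted p under 0.05), so 2 of 10 in each direction was no larger a share than the background. The ranges of both groups were apart for 4 of the 10 members, against 51.2% of all genes. The median log2 fold change of the members was −0.13, beside 0.02 for all genes.

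Hsf1, the transcription factor of the response, measured 19.9, 21.3, 18.6 and 20.9 CPM in the 4 WT libraries and 18.3, 16.8, 20.7 and 17.1 CPM in the Ncf1-/- libraries. The groups overlapped, and the log2 fold change of −0.15 (95% interval −0.37 to 0.08) did not pass the test (adjusted p = 0.256).

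Hspd1 encodes the mitochondrial chaperonin Hsp60, which folds imported proteins together with its lid Hspe1. Hspd1 measured 168, 155, 164 and 170 CPM in WT and 229, 272, 278 and 370 CPM in Ncf1-/- libraries. All Ncf1-/- libraries lay above all WT libraries, and the log2 fold change was 0.81 ± 0.13 (SE, adjusted p = 0.00015). Hsp90aa1, the inducible cytosolic HSP90 that matures kinases and receptors, measured 435, 461, 388 and 420 CPM in WT and 538, 614, 590 and 747 CPM in Ncf1-/- NSCs. Again the groups were apart, with a log2 fold change of 0.55 ± 0.11 (adjusted p = 0.000934). Both calls held in all 21 alternatives with a p-value of their own, at adjusted p of at most 0.0084 for Hspd1 and 0.0209 for Hsp90aa1, but neither was counted under a further limit, a log2 fold change of at least 1.

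Bag3 is a co-chaperone that releases nucleotide from HSP70 and directs its clients to selective autophagy. Bag3 measured 31.3, 42.2, 45.8 and 51.5 CPM in WT and 23.7, 26.7, 26.1 and 28.7 CPM in Ncf1-/- NSCs. Every Ncf1-/- library lay below every WT library, and the log2 fold change was −0.70 ± 0.12 (adjusted p = 0.000295). This call held in each of the 21 alternatives in which a fold change was computed, with adjusted p between 4.25e-07 and 0.0346, and was likewise not counted under the limit on fold change.

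The inducible HSP70 genes stood at 25 to 170 counts per library. Hspa1b measured 3.82, 3.78, 4.88 and 8.07 CPM in WT and 3.01, 3.05, 2.47 and 3.10 CPM in Ncf1-/- NSCs. The groups were apart and the log2 fold change was −0.81 ± 0.24 (adjusted p = 0.00962), but the call was lost on log2(TPM + 1) values (−0.38, adjusted p = 0.0776, limma) and not counted under the limit on fold change. Hspa1a measured 2.001, 1.35, 3.16 and 4.90 CPM in WT and 1.53, 1.69, 2.65 and 2.05 CPM in Ncf1-/-. These overlapped and did not pass the test (−0.52 ± 0.34, adjusted p = 0.201). Because RSEM had to divide reads between the near-identical genes, with Hspa1a taking 26.1% to 39.2% of the pair's counts in WT and 33.3% to 51.9% in Ncf1-/-, the sum of both was tested as well. The sum was 5.82, 5.07, 8.03 and 13.0 CPM in WT and 4.53, 4.74, 5.12 and 5.11 CPM in Ncf1-/-. WT replicate 2 lay just below the highest Ncf1-/- libraries, and the log2 fold change of −0.71 ± 0.23 passed (adjusted p = 0.0198). It did not pass with the replicate number as a block within the Ncf1-/- groups (−0.71, adjusted p = 0.0501), nor without Ncf1-/- replicate 1 (−0.67, adjusted p = 0.0506).

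The remaining 4 members did not pass. Hspa8 ranged from 1462 to 1719 CPM in WT and from 1632 to 1834 CPM in Ncf1-/-, with a log2 fold change of 0.15 (95% interval −0.07 to 0.36, adjusted p = 0.233). It passed with library totals (0.32, adjusted p = 0.0278), where the median of all genes stood at 0.19. Relative to the median of all genes Hspa8 stood at 0.13 with TMM factors and at 0.13 with library totals. Hsph1, an HSP110 that recharges HSP70 and takes part in disaggregation, ranged from 72.0 to 95.9 and from 70.0 to 95.3 CPM (−0.12, interval −0.40 to 0.16). Dnajb1, an HSP40 that delivers clients to HSP70, ranged from 33.1 to 44.8 and from 35.4 to 39.7 CPM (−0.15, interval −0.38 to 0.08). The small heat shock protein gene Hspb1 had 8, 6, 58 and 3 counts in the WT libraries, the 58 in WT replicate 3, and 13 to 21 counts in Ncf1-/- libraries. With all libraries its log2 fold change was 0.12 ± 0.53 (adjusted p = 0.868), and without WT replicate 3 it was 1.37 (adjusted p = 0.00575), so that 1 library decided this value. Dnajb1 likewise passed only without WT replicate 3 (−0.24, adjusted p = 0.0329), and Hspa1a only without WT replicate 2 (−0.77, adjusted p = 0.0444), among the 12 fits that left out 1 library.

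**Figure D2:**
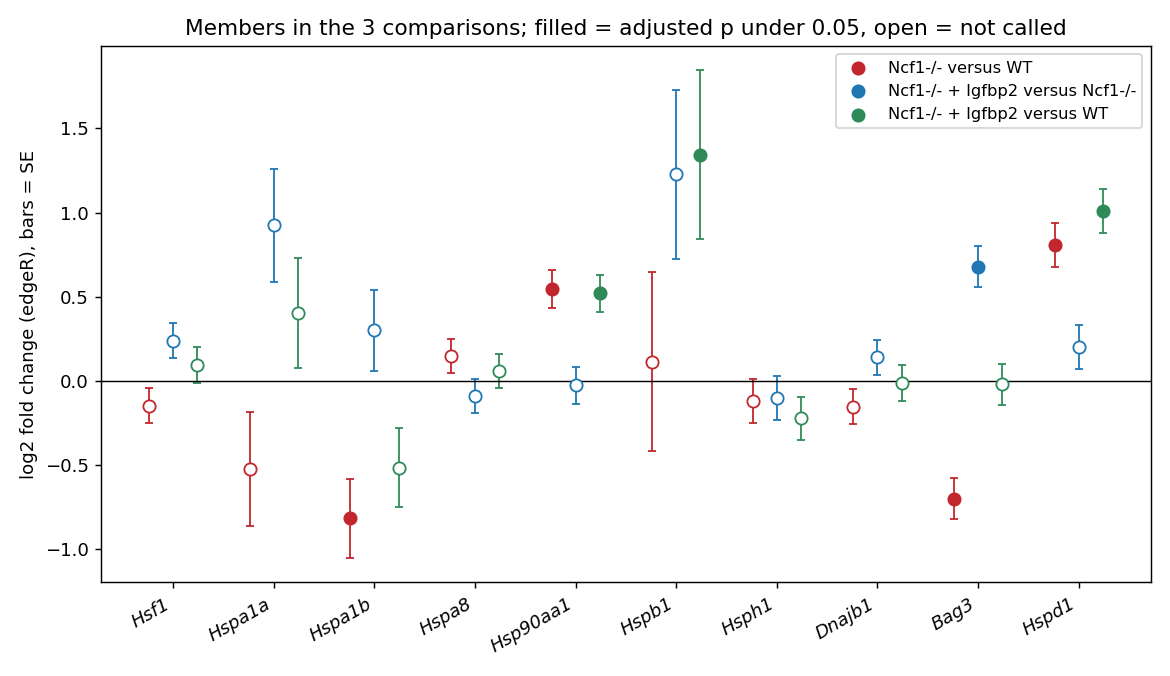
Log2 fold change from edgeR (vertical axis) of each member (horizontal axis) in the 3 comparisons, with SE bars, filled where the adjusted p was under 0.05 and open where it was not. Bag3 lies at −0.70 in Ncf1-/- against WT, at 0.68 in Igfbp2 against vehicle and at −0.02 in Igfbp2 against WT, whereas Hspd1 and Hsp90aa1 lie above 0 in both comparisons with WT.

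The comparison of Igfbp2-treated with vehicle-treated Ncf1-/- NSCs asked what the added protein changed. Of the 10 members only Bag3 was called, 1.60-fold higher with Igfbp2. Across all genes tested 14.2% were called higher and 10.7% lower. Groups were apart for 3 members, Bag3, Hspa1a and Hspb1, against 34.1% of all genes. The members' median log2 fold change was 0.22, beside 0.04 for all genes. This comparison shares the Ncf1-/- libraries with the one above, so opposite signs in the 2 comparisons are not independent.

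Bag3 measured 42.8, 41.6, 42.2 and 42.0 CPM with Igfbp2 and 23.7 to 28.7 CPM with vehicle. The 4 Igfbp2 libraries lay close together and above all vehicle libraries, and the log2 fold change was 0.68 ± 0.12 (adjusted p = 0.00278). The call held in 19 of 21 alternatives and was lost on TPM, where the vehicle libraries stood at 6.63, 8.10, 7.79 and 10.1 TPM and the Igfbp2 libraries at 8.17, 10.3, 11.3 and 7.82 TPM. On that scale the groups overlapped, and the log2(TPM + 1) difference was 0.18 (adjusted p = 0.464, limma).

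The choice of scale moved all genes in this comparison. The median log2 fold change of all genes tested was 0.04 with TMM factors, −0.23 with library totals alone and −0.30 on log2(TPM + 1). Relative to that median Bag3 was higher by 0.64 with TMM factors, by 0.64 with library totals and by 0.48 on log2(TPM + 1). Hspa8 and Hsp90aa1, not called with TMM factors, were called lower on log2(TPM + 1), at −0.57 (adjusted p = 0.0223) and −0.55 (adjusted p = 0.0415), and relative to the median at −0.27 and −0.25. The signs of Hsf1, Dnajb1 and Hspd1 turned from above to below 0 with library totals and on log2(TPM + 1), and that of Hspa1b on log2(TPM + 1).

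**Figure D3:**
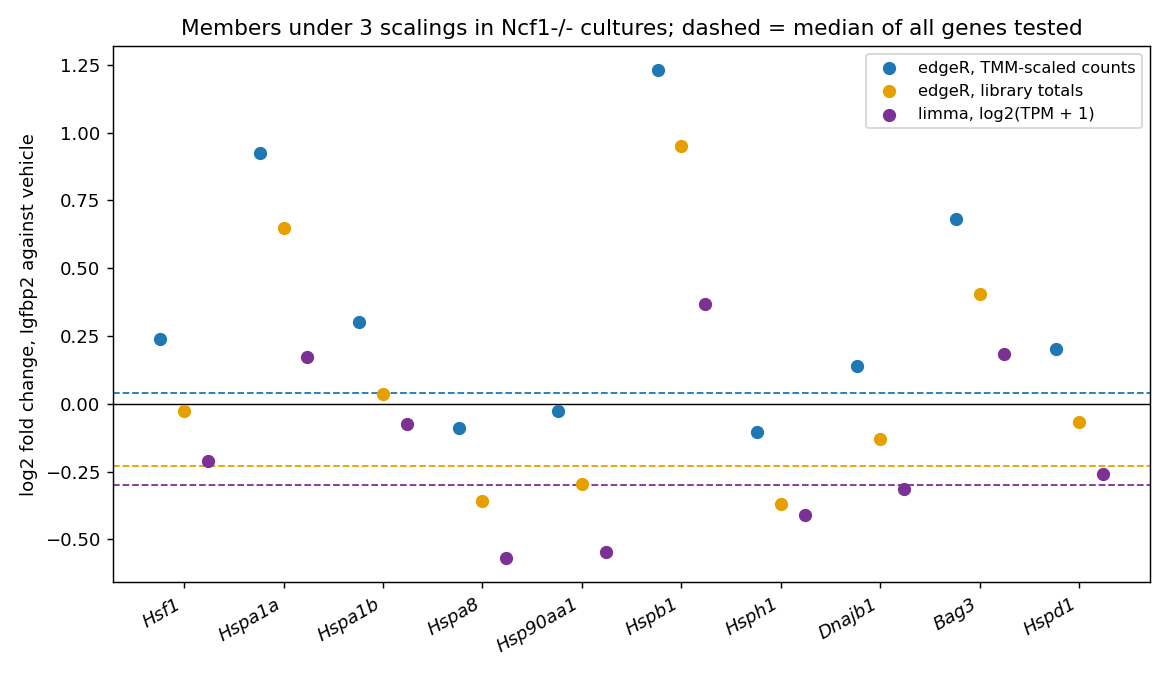
Log2 fold change of Igfbp2 against vehicle (vertical axis) of each member (horizontal axis) from TMM-scaled counts, from counts scaled by library totals and from log2(TPM + 1), without error bars, with dashed lines at the median of all genes tested under each scale. Bag3, Hspa1a and Hspb1 lie above 0 and above the dashed lines under all 3, and Hspa8 and Hsph1 lie below them.

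The other inducible members were at low counts. Hspa1a measured 3.66, 4.87, 2.87 and 3.73 CPM with Igfbp2, all above the vehicle libraries, at a log2 fold change of 0.93 ± 0.34 that missed the threshold (adjusted p = 0.0596). Over the alternatives its call varied: it passed with DESeq2 (adjusted p = 0.0303), with voom weights by group (0.0111), when only the 2 groups were fitted (0.0064) and without WT replicate 2 (0.036) or 4 (0.0276), within a range of 0.0064 to 0.41 over 20 alternatives. Hspa1b measured 3.05, 3.07, 4.45 and 3.73 CPM with Igfbp2 and overlapped with vehicle (0.30 ± 0.24, adjusted p = 0.376). Hspa1a took 39.3% to 61.1% of the pair's counts with Igfbp2, and the summed pair stood at 6.70, 7.93, 7.32 and 7.46 CPM. These sums were above all vehicle libraries, with a log2 fold change of 0.59 ± 0.24 (adjusted p = 0.0816; 0.0122 without WT replicate 4). Hspb1 measured 1.61, 2.40, 1.39 and 1.77 CPM with Igfbp2 and 0.566, 1.02, 0.795 and 0.672 CPM with vehicle. Its groups were apart at 29 to 40 against 13 to 21 counts, with a log2 fold change of 1.23 ± 0.50 that did not pass (adjusted p = 0.0893) unless WT replicate 3 was left out of the shared estimate of spread (1.23, adjusted p = 0.00488), only the 2 groups were fitted (0.00358) or voom weights were used (0.00875).

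The remaining members were not called with TMM factors. Hsf1 measured 20.4, 21.6, 25.5 and 18.5 CPM with Igfbp2, overlapping with vehicle, at a log2 fold change of 0.24 (95% interval 0.01 to 0.47, adjusted p = 0.111). Hspd1 measured 323, 304, 383 and 311 CPM (0.20, interval −0.08 to 0.48, adjusted p = 0.264) and passed only without Ncf1-/- replicate 4 (0.36, adjusted p = 0.0228). The intervals of the other members were −0.31 to 0.13 for Hspa8, −0.27 to 0.21 for Hsp90aa1, −0.38 to 0.18 for Hsph1 and −0.09 to 0.37 for Dnajb1. Immediate early genes, which report recent signalling, summed to 473 to 650 CPM with Igfbp2 and 204 to 243 CPM with vehicle, with 7 of the 8 called higher. Mesenchymal and endothelial markers summed to 20.4 to 24.1 CPM with Igfbp2, 8.97 to 11.01 CPM with vehicle and 10.2 to 24.5 CPM in WT. Different genes made up these sums, so their overlap between Igfbp2 and WT is not a return to WT levels. Pdgfrb was the largest part in WT, at 4.876 to 23.48 CPM, against 0.886 to 1.503 CPM with Igfbp2 and 0.1766 to 0.485 CPM with vehicle. Acta2 was the largest part with Igfbp2, at 11.29 to 14.45 CPM, against 0.05568 to 2.983 CPM in WT. Of the 9 markers 5 were tested, 3 of them were called higher with Igfbp2 and 0 lower, and Lum and Cdh5 had at most 3 counts in every library. The part of either set in the Bag3 difference was not tested.

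Igfbp2-treated Ncf1-/- NSCs were also set against WT. As higher 3 members were called, Hspd1, Hsp90aa1 and Hspb1, and as lower 0, where 31.6% of all genes were called higher and 30.8% lower. The groups were apart for 2 members, against 54.3% of all genes. Hspd1 was 2.01-fold higher (log2 1.01 ± 0.13, adjusted p = 2.33e-05) and Hsp90aa1 1.43-fold higher (log2 0.52 ± 0.11, adjusted p = 0.00121). The Hsp90aa1 call was lost on log2(TPM + 1) (0.11, adjusted p = 0.647, limma), where the median of all genes stood at −0.25. Hspb1 was 2.54-fold higher (log2 1.34 ± 0.50, adjusted p = 0.0323) with overlapping groups, since WT replicate 3 measured 1.66 CPM against 0.364, 0.324 and 0.167 CPM in the other WT libraries. The Hspb1 call was lost in 10 of 20 alternatives: with the replicate block (adjusted p = 0.0666), with library totals (0.0517), with only the 2 groups fitted (0.0705), on log2(TPM + 1) (0.57, adjusted p = 0.0652) and without WT replicate 1, 2 or 4 or Igfbp2 replicate 1, 2 or 4, with log2 fold changes of 1.01 to 1.36 in those 6. Without WT replicate 3 it stood at 2.60 (adjusted p = 2.37e-05). Bag3 differed by −0.02 on the log2 scale, with a 95% interval of −0.28 to 0.24 (adjusted p = 0.898). Hspa1b was at −0.51 (interval −1.02 to −0.01, adjusted p = 0.073) and passed as lower with library totals, on TPM and without Igfbp2 replicate 3 or WT replicate 1 or 2. Dnajb1 was at −0.01 and not called with TMM factors. It was called lower on log2(TPM + 1) (−0.41, adjusted p = 0.0332, limma) and on log2(TPM + 0.1) (−0.44, adjusted p = 0.0489, limma). The medians of all genes on these scales were −0.25 and −0.4, and relative to them Dnajb1 stood at −0.15 and −0.03.

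Bag3 was thus called lower in Ncf1-/- than in WT and higher with Igfbp2 than with vehicle, and it was not called between Igfbp2 and WT. Hspd1 and Hsp90aa1 passed as higher in each Ncf1-/- group against WT and were not called between vehicle and Igfbp2.

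The wider chaperone network was described with 75 other genes in 9 lists, of which 67 were tested. In Ncf1-/- against WT 28 of the 67 were called higher (41.8%) and 9 lower (13.4%), with a median log2 fold change of 0.16, where 28.9% of all genes were called higher and 28.2% lower, with a median of 0.02. HSP90 and its co-chaperones had 9 of 14 higher and none lower, with a median of 0.38. The TRiC/CCT chaperonin, the ring that folds actin and tubulin, had 7 of 8 subunits higher, with a median of 0.40. With library totals these 2 lists had 10 and 8 genes higher and on log2(TPM + 1) 7 and 5, with 0 lower under either. Their medians were 0.56 and 0.58 with library totals, beside 0.19 for all genes. On log2(TPM + 1) they were 0.395 and 0.415, beside 0.04 for all genes. The mitochondrial chaperones and proteases had 4 of 9 higher and 1 lower, the HSF family and its modulators 2 of 4 higher and 1 lower, the other HSP70 and HSP110 genes 2 of 8 in each direction, the other nucleotide exchange factors and BAG genes 2 of 6 in each direction, the other J-domain genes 1 of 11 higher and 2 lower, the other HSF1-induced genes 1 of 3 in each direction and the other small heat shock proteins none of 4.

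Hspe1, the lid of the Hsp60 chaperonin, measured 59.4, 53.5, 61.4 and 58.6 CPM in WT and 114, 108, 119 and 109 CPM in Ncf1-/- NSCs. The groups were far apart (log2 0.95 ± 0.08, adjusted p = 6.47e-07), next to 0.81 for its partner Hspd1. Hsp90ab1, the constitutive HSP90, measured 1472 to 1686 CPM in WT and 2178 to 2261 CPM in Ncf1-/- (0.49 ± 0.10, adjusted p = 0.000874), next to 0.55 for Hsp90aa1. Stub1, a ubiquitin ligase of the chaperone system, rose by 0.59 and Tcp1, a TRiC/CCT subunit, by 0.62. Serpinh1, a collagen chaperone of the endoplasmic reticulum, rose by 0.997 (adjusted p = 0.000519) and Ier5, which modulates Hsf1, by 0.47 (adjusted p = 0.018) with overlapping groups. The Ier5 call was lost on log2(TPM + 1) (adjusted p = 0.0606), on log2(TPM + 0.1) (0.0633) and without WT replicate 1 (0.0544) or 4 (0.057). Hspa2, an HSP70 of testis and brain, fell by 1.38 on the log2 scale, from 17.3 to 34.5 CPM in WT to 10.2 to 11.3 CPM in Ncf1-/-. Bag1, a nucleotide exchange factor of HSP70, fell by 0.57 and the J-domain gene Dnajb2 by 0.56. Hsf2, the second heat shock factor, stood at 0.07 (adjusted p = 0.474) and Cryab, a small heat shock protein of glia, at 0.03 (adjusted p = 0.927). With library totals Hsf2 passed at 0.25 (adjusted p = 0.0353), where the median of all genes stood at 0.19.

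**Figure D4:**
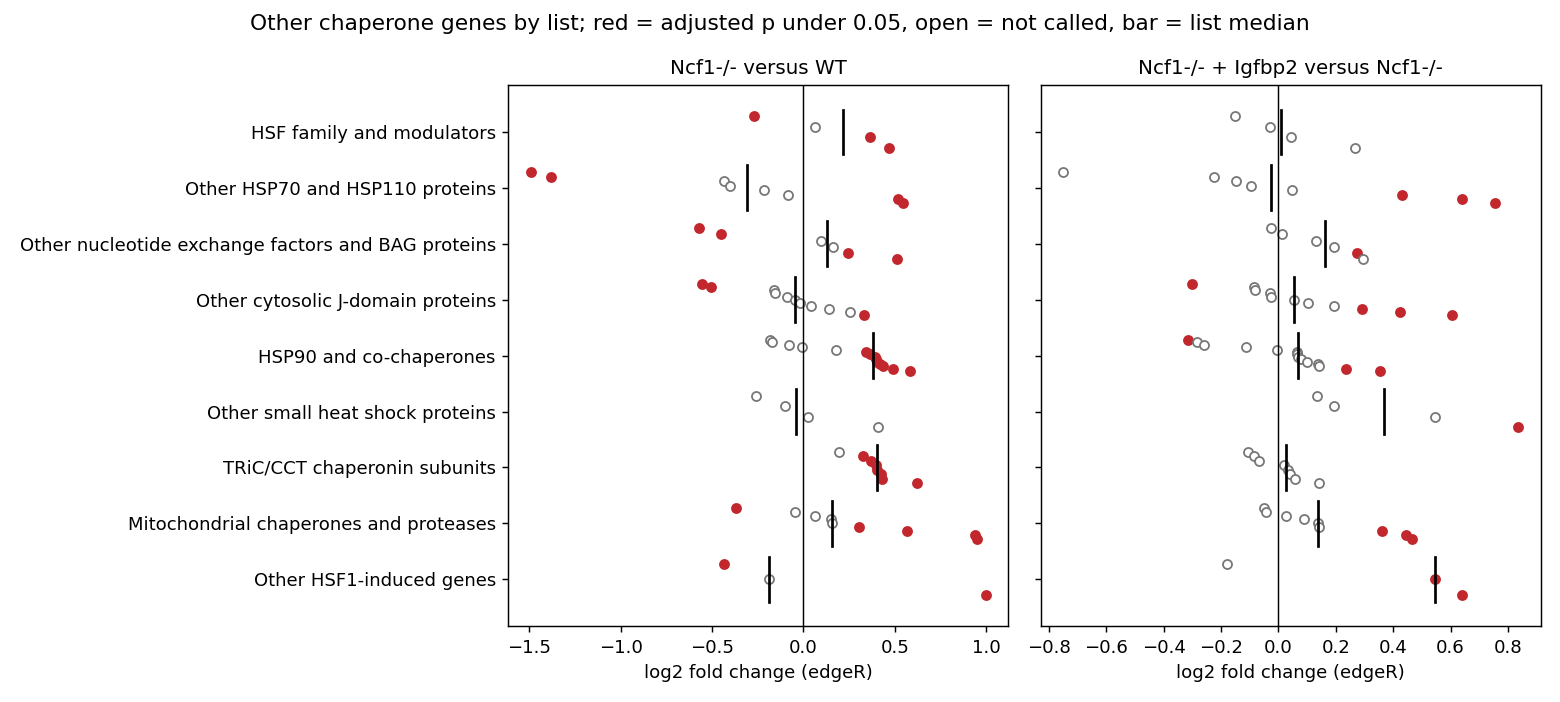
Log2 fold change (horizontal axes, of different span) of the 67 tested chaperone genes outside the 10 members, by list (vertical axis), for Ncf1-/- against WT at the left and Igfbp2 against vehicle at the right. Red points passed at an adjusted p under 0.05, open points did not, and bars mark the list medians, which reach 0.38 for HSP90 and co-chaperones and 0.40 for TRiC/CCT at the left and 0.07 and 0.03 at the right.

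Between Igfbp2 and vehicle the direction of the chaperone calls depended on the scale: with TMM factors 15 of the 67 genes were called higher (22.4%) and 2 lower (2.99%), with library totals 1 higher and 25 lower, and on log2(TPM + 1) 0 higher and 33 lower. All genes moved with the scale too: 14.2% of them were called higher and 10.7% lower with TMM factors, while 648 were called higher and 5258 lower with library totals and 157 higher and 6056 lower on log2(TPM + 1), of 15706. With the replicate block 9 were called higher and 0 lower. The median was 0.07 with TMM factors, and no TRiC/CCT subunit was called. Hspa2 measured 16.3, 16.0, 15.5 and 17.9 CPM with Igfbp2, above all vehicle libraries, and was higher by 0.64 (adjusted p = 0.0217). That call was lost in 10 of 21 alternatives: with the replicate block (adjusted p = 0.0598), with library totals (0.0985), on both TPM scales (0.13 on log2(TPM + 1), adjusted p = 0.55) and without Ncf1-/- replicate 2 or 3 or any 1 of the Igfbp2 libraries (0.0561 to 0.0757). Cryab was higher by 0.83 (adjusted p = 0.0132) and Dnaja4, an HSP40, by 0.60 (adjusted p = 0.00379), but both calls were lost with library totals (adjusted p = 0.0554 and 0.0612) and on log2(TPM + 1) (0.26 and 0.04, adjusted p = 0.248 and 0.84). Hspa9, the mitochondrial HSP70, was higher by 0.47 (adjusted p = 0.0242), Fkbp5, an HSP90 co-chaperone, by 0.35 (adjusted p = 0.0357) and Bag5, an exchange factor, by 0.27 (adjusted p = 0.013), but each of these 3 stood below 0 on log2(TPM + 1). The Fkbp5 call held in only 6 of 21 alternatives and was lost with the replicate block (adjusted p = 0.074) and without any 1 of the Igfbp2 libraries, Ncf1-/- replicate 1, 2 or 3 or WT replicate 2 or 4 (0.0533 to 0.141). The Hspa9 call was lost with library totals (adjusted p = 0.298) and without Ncf1-/- replicate 1, 2 or 3 or Igfbp2 replicate 1, 3 or 4 (0.0553 to 0.0796), and the Bag5 call with library totals (0.993), without Ncf1-/- replicate 3 (0.061) and without Igfbp2 replicate 3 (0.0534). Hsp90ab1 (0.14), Hspe1 (0.09) and Hsf2 (−0.15) did not pass, although Hsf2 was called lower in 5 of 21 alternatives, among them library totals (−0.42, adjusted p = 0.00406) and log2(TPM + 1) (−0.55, adjusted p = 0.0115), and Hspe1 on log2(TPM + 1) (−0.41, adjusted p = 0.0181).

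Against WT, 36 of the 67 genes were higher with Igfbp2 (53.7%) and 14 lower (20.9%) with TMM factors, beside 31.6% and 30.8% of all genes. On log2(TPM + 1) 5 were higher and 21 lower. All genes moved with the scale too: their median log2 fold change was −0.0055 with TMM factors, −0.099 with library totals and −0.25 on log2(TPM + 1). All 8 TRiC/CCT subunits were among those called higher with TMM factors (median 0.37), 6 with library totals (median 0.28) and 1 on log2(TPM + 1) (median −0.06).

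The genes whose pattern over the 12 libraries was closest to that of Hsph1 were Map9, Smek1 and Dhx33, with root mean square differences of 0.0735, 0.0745 and 0.0889 in centred log2 CPM among 11171 genes compared. Of the members compared, Hspa8 was nearest to Hsph1, at rank 1065 (0.195), and Hspd1 farthest, at rank 8575 (0.537).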

How the data were processed

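RNA of 12 cultures was sequenced after rRNA depletion. The authors mapped reads to GRCm38 with Bowtie2 and quantified them with RSEM; versions and annotation are not given in the sources used here. They deposited per library the expected count per gene, without normalization, which was rounded to whole numbers (15.9% were not whole) and tested. The TPM values that the authors deposited come from RSEM and served for levels and as an alternative. The FPKM values, also from RSEM per the file headers, were not used. A merged table of the authors holds a score, a whole multiple (within 2%) of TPM for 100.0% of 146348 values of at least 1 TPM; only its symbols were used.

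Counts were fitted in edgeR 4.0.16 (R 4.3.3) with a quasi-likelihood test, a mean per group over all 12 libraries, TMM factors and the default filter, which kept 15706 genes and 99.9% of counts. Benjamini-Hochberg adjustment ran over all of them at 0.05. The study's own tests ran on TPM; counts were preferred here because their depth is known. Alternatives were DESeq2 1.42.0, library totals, a filter at a mean of 5 CPM or none, a fit of 2 groups only, a replicate block, limma 3.58.1 on log2(TPM + 1) or log2(TPM + 0.1), voom weights, an adjusted p under 0.01, a log2 fold change of at least 1 and leaving out each library. The edgeR step was tested on simulated counts that had the same spread in every group. In the data the coefficient of variation between replicates beyond counting error was 0.25 in WT, 0.116 in Ncf1-/- and 0.122 with Igfbp2. How the shared estimate of spread behaves under that inequality was not simulated. With 4 against 4 libraries an exact permutation test of a single value cannot go below 0.0286. The methods pair vehicle and Igfbp2 cultures by animal, and the replicate block followed the replicate number within the Ncf1-/- groups only. Deviations of same-numbered libraries correlated at −0.0673 to 0.0328 in 4 pairs, and at −0.248 to 0.257 in the 12 pairs of different number. Y-linked levels were high with vehicle and low with Igfbp2 in every same-numbered pair. The block may therefore not join cultures of the same animal. The methods describe replicates as separate cultures of separate pups within a group. No 2 libraries of a group agreed within sampling noise.

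Named genes were the 10 members, Hsp90ab1, Hspe1, Hsf2 and Cryab, the called gene with the largest change in each of 9 chaperone lists at a mean of at least 5 CPM, in the comparisons of Ncf1-/- with WT and of Igfbp2 with vehicle, and the 3 genes closest in pattern to Hsph1; 1 gene that the rule named is not reported here. Members and lists were chosen with earlier results of these data known. Promoter windows are from RefSeq (GRCm38.p6), and shared stretches of 50 bases were counted in GENCODE M21 transcripts.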

Additional observations from a re-analysis of the deposited data

Results flagged for a closer look

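For each member and for the summed Hspa1a and Hspa1b, the gap of the highest or lowest library to its neighbour was set against the range of its group of 4, and 3 of 33 sets were past Dixon's 95% critical value for 4 samples; chance alone gives about 1 in 20. Hspb1 in WT replicate 3 stood at 1.66 CPM against 0.167 to 0.364 CPM in the other WT libraries (gap over range 0.868). Hsph1 in Igfbp2 replicate 3 stood at 91.4 CPM against 66.9 to 68.4 CPM in the other Igfbp2 libraries (0.940). Without that library Hsph1 was called lower with Igfbp2 than in WT (−0.42, adjusted p = 0.0102), as also without WT replicate 4 (−0.37, adjusted p = 0.0287) and on log2(TPM + 1) (−0.56, adjusted p = 0.0464), against −0.22 (adjusted p = 0.151) with all libraries. Hspa1b in Ncf1-/- replicate 3 stood at 2.47 CPM against 3.01 to 3.10 CPM in the other Ncf1-/- libraries (0.854), while the summed Hspa1a and Hspa1b in that library, 5.12 CPM, was the highest of the 4 Ncf1-/- libraries.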

How the results depend on the processing

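Calls of Hspd1, Hsp90aa1 and Bag3 in Ncf1-/- against WT, and of Hspd1 in Igfbp2 against WT, held in all 21 alternatives with a p-value of their own; the first 3 were not counted under a fold limit. The members called in Ncf1-/- against WT were 4 and ranged from 4 to 6 in the fits without 1 library, with 0 under a fold limit of 1 (log2). In Igfbp2 against vehicle 1 member was called, and 2 with DESeq2 (both higher), 2 with library totals (1 higher, 1 lower), 2 on log2(TPM + 1) and 2 on log2(TPM + 0.1) (all lower), 3 with only the 2 groups, 3 with voom weights, 0 under a fold limit of 1 (log2) and 1 to 2 without 1 library. In Igfbp2 against WT 3 members were called (3 higher, 0 lower), and 5 on log2(TPM + 0.1) (2 higher, 3 lower). Without 1 library 2 to 5 were called, with 5 without Igfbp2 replicate 3 (3 higher, 2 lower). Of the 67 other chaperone genes, 37 were called in Ncf1-/- against WT, 21 on log2(TPM + 0.1) and 2 under that fold limit. In Igfbp2 against vehicle 17 were called, 26 with library totals, 33 on log2(TPM + 1), 9 with the replicate block, 3 at an adjusted p under 0.01, 0 under a fold limit of 1 (log2) and 4 to 18 without 1 library. In Igfbp2 against WT 50 were called, 26 on log2(TPM + 1), 24 on log2(TPM + 0.1) and 5 under that fold limit. Among these counts, and among the members' calls, the replicate block changed only the count of 9 and the calls of the Hspa1a and Hspa1b sum and of Hspb1 given in the report, and among the other genes named it ended the calls of Hspa2 (0.0598) and Fkbp5 (0.074, both adjusted p) in Igfbp2 against vehicle.

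The summed Hspa1a and Hspa1b in Ncf1-/- against WT missed the threshold with library totals (−0.526), only the 2 groups (−0.676), the replicate block (−0.707), log2(TPM + 1) (−0.383) and log2(TPM + 0.1) (−0.549), with adjusted p from 0.00363 to 0.138 over all alternatives and −0.885 to −0.411 without 1 library. In Igfbp2 against vehicle the sum passed with only the 2 groups (0.544) and voom weights (0.587) and without WT replicate 4 (0.555), with 0.515 to 0.633 without 1 library. In Igfbp2 against WT it ran from −0.331 to 0.144 without 1 library. Signs of log2 fold changes turned in Ncf1-/- against WT with library totals for Hsf1 (0.034), Hsph1 (0.0605), Dnajb1 (0.031), and in at least 1 of the 12 fits without 1 library for Hspb1 (−0.177 to 1.37), Hsf2 (−0.0128 to 0.109), Cryab (−0.117 to 0.317). Between Igfbp2 and vehicle signs turned with library totals for Hsf1 (−0.0252), Dnajb1 (−0.131), Hspd1 (−0.0688), Hsp90ab1 (−0.132), Hspe1 (−0.186), and on log2(TPM + 1) for Hsf1 (−0.21), Hspa1b (−0.0735), Dnajb1 (−0.315), Hspd1 (−0.26), Bag5 (−0.179), Hsp90ab1 (−0.33), Fkbp5 (−0.0288), Hspe1 (−0.413), Hspa9 (−0.0183), and on log2(TPM + 0.1) for Hsf1 (−0.243), Hspa1b (−0.163), Dnajb1 (−0.342), Hspd1 (−0.263), Bag5 (−0.192), Hsp90ab1 (−0.33), Fkbp5 (−0.0324), Hspe1 (−0.416), Hspa9 (−0.0184), and in at least 1 of the 12 fits without 1 library for Hsp90aa1 (−0.134 to 0.0909), Hsph1 (−0.267 to 0.0159). Between Igfbp2 and WT they turned with library totals for Hspa8 (−0.0352), and on log2(TPM + 1) for Hsf1 (−0.297), Hspa8 (−0.376), and on log2(TPM + 0.1) for Hsf1 (−0.341), Hspa8 (−0.377), and with no filter for Dnajb1 (0.0129), Bag3 (0.00309), and with voom weights by group for Bag3 (0.00556), and in at least 1 of the 12 fits without 1 library for Hsf1 (−0.0716 to 0.157), Hspa8 (−0.0502 to 0.116), Dnajb1 (−0.117 to 0.0554), Bag3 (−0.143 to 0.0204). Of these genes, those called with TMM factors were Bag5, Fkbp5 and Hspa9 in Igfbp2 against vehicle. In Ncf1-/- against WT the median of all genes was 0.015 with TMM factors and 0.19 with library totals. Relative to these medians, TMM factors first, Hsf1 stood at −0.161 and −0.159, Hsph1 at −0.135 and −0.133 and Dnajb1 at −0.167 and −0.162. Likewise in Igfbp2 against vehicle Hsf1 stood at 0.203 and 0.209, Dnajb1 at 0.103 and 0.104 and Hspd1 at 0.165 and 0.166. The cause of the changes of sign was not tested. Hspa1a, Hspa1b and Hspb1 had 3 to 170 counts per library, so counting error weighs more on them than on the other members.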
